A study of Mus musculus with 8 samples.

Results

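Upk3b, Upk1b, Msln, Wt1, Tbx18, Aldh1a2, Krt8, Krt18, Krt19 and Lrrn4 are 10 genes used as markers of the epicardium and of related mesothelium, and their counts were followed through cardiomyocyte preparations from hearts given Cre against Carm1 and from their controls. They were taken from the deposited count table by symbol, 10 of 54752 gene IDs, and all 10 had enough reads to be tested. The preparations came from mice with floxed Carm1 alleles (Carm1fl/fl) in every group, so the controls carried them too. KO mice had received AAV-CRE, an adeno-associated virus of serotype 9 that brings in Cre recombinase and so deletes the floxed part of Carm1, an arginine methyltransferase. Control mice had received AAV-GFP in its place. Each treatment was sampled at 1w and at 3w, in 2 libraries per group and 8 in all, and the labels do not say from which event the weeks were counted. The labelled injection days were postnatal day 1 and 2 for the libraries at 1w and day 3 and 4 for those at 3w, in KO and control alike. The hearts were mosaics of infected and uninfected cells, the promoter that drives Cre is not given in the sources used here, no sorting is described, and no group received Cre without floxed alleles.

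The epicardium is the mesothelial sheet that covers the heart. Before birth some of its cells pass through an epithelial-mesenchymal transition and give rise to fibroblasts and vascular smooth muscle, under transcription factors such as Wt1 and Tbx18 and with retinoic acid made by Aldh1a2. After birth the sheet becomes thin and quiet, and its cells keep surface proteins shared with the mesothelium of the lung, pleura and gut, among them Msln, Upk3b and Lrrn4, and the keratins of simple epithelia. A Langendorff preparation digests the whole heart through its vessels and enriches cardiomyocytes, so transcripts of other cells can remain in it.

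Levels are given as CPM, the counts of a gene relative to its library's total after TMM (trimmed mean of M-values) scaling. Differences are log2 fold changes ± SE from 1 edgeR fit of the 4 groups over 14665 genes, and a gene is called higher or lower at an adjusted p under 0.05. Total counts ran from 20818285 to 53671626 per library, so that 1 CPM stood for 23.8 to 44.5 counts. The p-values measure the spread between the 2 libraries of a group, which may be technical, since the labels do not say outright that they came from separate animals. Carm1 itself stood at 40.5 and 39.0 CPM in 1w control, 39.8 and 39.2 in 3w control, 22.2 and 22.4 in 1w KO, and 17.3 and 17.8 in 3w KO, lower in KO by -0.83 ± 0.055 at 1w and -1.17 ± 0.06 at 3w. Summed counts of 10 ventricular cardiomyocyte markers were 37596 to 81808 CPM in every library against 22.2 to 82.4 CPM for the 10 epicardial mesothelial genes, with Actc1, an abundant actin of heart muscle, listed at 0 counts in all 8 libraries. Tcf21 and Scx, further genes of the epicardium and its descendants, were also listed at 0 throughout, and a 0 in this table is therefore not read as absence.

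The summed CPM of the 4 Y-linked genes Kdm5d, Uty, Ddx3y and Eif2s3y was 0 to 0.042 in 1w control and 0.0697 to 0.106 in 3w KO, but 113 in both libraries of 1w KO and 161 to 170 in 3w control. KO and control thus differed in Y-linked transcripts at each age, in opposite directions, and an effect of Carm1 loss at 1 age cannot be told apart from this difference between the hearts sampled. The mean of the KO effects at both ages offsets the Y-linked difference only as far as it was equal in size at 1w and 3w. None of the 4 Y-linked genes was called in that mean, but their SE were wide (Ddx3y 0.78 ± 0.58). That comparison is given after those at each age, and what remains of the Y-linked difference in it was not tested. In bulk RNA, fewer cells of a type and less RNA per cell cannot be told apart, and this holds for every difference below.

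RefSeq promoter windows (GRCm38.p6, the assembly behind mm10) were found for 6 of the 10 genes: Upk3b, Tbx18, Aldh1a2, Krt8, Krt18 and Lrrn4. The stretches before the start of 4 of them are printed, 5′ to 3′ on the gene's own strand. Upk3b and Lrrn4 were both called lower in KO at 3w, and Krt8 and Krt18 both higher. Tbx18 was also called lower there (-0.61 ± 0.24), but its window is not printed. The 3w calls on Lrrn4 and Tbx18 were each lost without some single libraries. Capitals mark the letters GGAATG on either strand, the core bound by TEAD factors. The stretches lie at chr5:136038246-136038495 (+) for Upk3b, chr2:132880892-132881112 (-) for Lrrn4, chr15:102004483-102004592 (-) for Krt8 and chr15:102027966-102028179 (+) for Krt18, all but the first shortened where the GENCODE gene begins earlier than the RefSeq start.
Upk3b: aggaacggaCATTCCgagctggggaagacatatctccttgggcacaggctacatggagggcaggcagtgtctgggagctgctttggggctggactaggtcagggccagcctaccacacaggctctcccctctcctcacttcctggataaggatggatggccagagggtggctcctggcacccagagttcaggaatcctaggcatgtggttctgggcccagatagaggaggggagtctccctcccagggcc
Lrrn4: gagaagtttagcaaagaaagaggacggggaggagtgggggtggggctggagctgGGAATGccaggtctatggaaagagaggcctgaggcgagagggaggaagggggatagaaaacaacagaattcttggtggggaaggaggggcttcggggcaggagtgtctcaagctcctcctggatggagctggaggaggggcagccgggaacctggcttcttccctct
Krt8: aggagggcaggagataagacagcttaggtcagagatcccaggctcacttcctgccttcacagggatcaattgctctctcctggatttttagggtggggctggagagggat
Krt18: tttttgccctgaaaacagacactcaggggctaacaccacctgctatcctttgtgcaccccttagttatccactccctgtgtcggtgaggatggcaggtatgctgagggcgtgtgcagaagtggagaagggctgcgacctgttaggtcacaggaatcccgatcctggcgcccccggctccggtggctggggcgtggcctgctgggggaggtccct
GGAATG occurred in the Upk3b stretch on the minus strand, beginning 241 bases before the RefSeq start. In the Lrrn4 stretch it was on the plus strand, 196 bases before the RefSeq start, which lies beyond the end of the shortened stretch. It occurs in 12.6% of all 32851 windows of 250 bases in the table. GTGGGCG, a core shared by WT1 and EGR factors, was found in the Tbx18 window alone among the 6, and it occurs in 7.02% of all windows. The Tbx18 window held no GGAATG. The T-box element GGTGTGA (3.33% of windows), TATAAA (12.4%) and the GC box GGGCGG (32.7%) were in none of the 6. All motifs were searched on both strands, and none overlaps another here. CpG was counted over the full windows of 250 bases, including the bases cut from the printed stretches. By that count the windows differed widely: Upk3b had 2 CpG dinucleotides, Krt8 3, Lrrn4 5, Krt18 12, Tbx18 15 and Aldh1a2 40, against a median of 6 over all windows. Only 1.09% of windows held more CpG than that of Aldh1a2, and 71% held more than that of Upk3b.

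At 1w, 7 of the 10 genes were higher in KO and 0 lower, with a median log2 fold change of 1.34 against 0.02 over all genes tested. Among all genes tested 23% were called higher and 20% lower in this comparison, and 4.92% were called at least 2-fold higher. At 3w, 2 of the 10 were higher in KO and 6 lower, with a median of -0.59 against 0.01, where 24.4% of all genes were called higher and 24.8% lower. Upk3b, Upk1b, Msln, Krt19 and Lrrn4 were called higher in 1w KO and lower in 3w KO, 5 of 10, against 3.15% of all genes (462) with both calls. These 2 comparisons share no library, but both come from 1 fit with a shared estimate of spread. The 10 genes were described with earlier results of these data known, so the share of all genes is a reference and not a test.

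**Figure D1:**
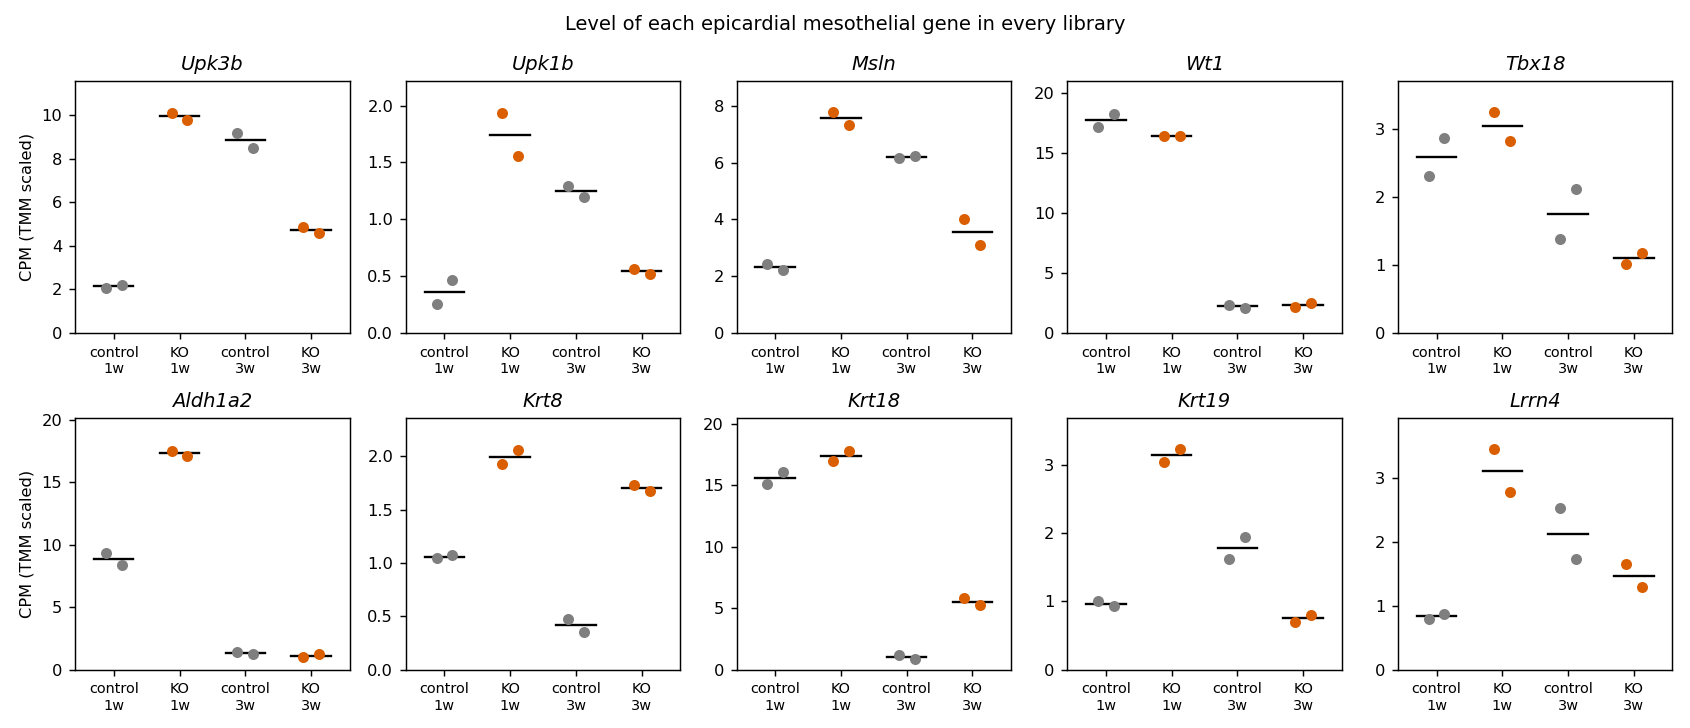
CPM (y axis, TMM scaled, linear from 0, with its own scale in each panel) of the 10 genes in the 4 groups (x axis). Points are the 8 libraries, grey for control and orange for KO, and the black line is the mean of the 2 libraries. Upk3b, Upk1b, Msln, Krt19 and Lrrn4 are higher in KO at 1w and lower in KO at 3w, Wt1 and Aldh1a2 are low in all 4 libraries at 3w, and Krt18 is lowest in 3w control.

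The genes for surface proteins moved most alike. Upk3b (ENSMUSG00000042985, chromosome 5, 136038496 to 136046487 in mm10) encodes a uroplakin, a membrane protein first known from the lining of the bladder and present on mesothelium. It stood at 2.06 and 2.21 CPM in 1w control, 10.1 and 9.76 in 1w KO, 9.18 and 8.48 in 3w control, and 4.84 and 4.60 in 3w KO. Control at 1w was thus the low group and 1w KO the high one, with no overlap between KO and control at either age. The KO effect was 2.20 ± 0.12 at 1w (4.61-fold, adjusted p = 1.9e-23) and -0.91 ± 0.11 at 3w (1.88-fold lower, adjusted p = 2e-10).

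Upk1b (ENSMUSG00000049436, chromosome 16, 38773184 to 38800328) encodes a tetraspanin that pairs with Upk3 proteins in the bladder lining. It had the fewest counts of the 10, 287 over the 8 libraries, and stood at 0.252 and 0.464 CPM in 1w control, 1.93 and 1.56 in 1w KO, 1.29 and 1.20 in 3w control, and 0.565 and 0.523 in 3w KO. The lowest of these values rest on 6 and 17 counts in 1w control and on 16 and 15 in 3w KO. The groups did not overlap, and the KO effect was 2.20 ± 0.30 at 1w (adjusted p = 8.8e-09), and at 3w it was -1.20 ± 0.31 (adjusted p = 0.00081).

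Msln (ENSMUSG00000063011, chromosome 17, 25748613 to 25754378) encodes mesothelin, a surface glycoprotein that binds the mucin Muc16. Its libraries read 2.43 and 2.21 CPM in 1w control, 7.79 and 7.33 in 1w KO, 6.17 and 6.22 in 3w control, and 4.02 and 3.10 in 3w KO. The rise in 1w KO was 1.72 ± 0.13 (3.29-fold, adjusted p = 5e-17) and the change at 3w was -0.80 ± 0.13 (1.74-fold lower, adjusted p = 5.7e-07). The 2 libraries of 3w KO lay further apart than those of any other group, yet both were below control.

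Lrrn4 (ENSMUSG00000043110, chromosome 2, 132868305 to 132880891) encodes a membrane protein with leucine-rich repeats that marks mesothelium in several organs. It had 0.797 and 0.874 CPM in 1w control, 3.46 and 2.78 in 1w KO, 2.53 and 1.73 in 3w control, and 1.66 and 1.29 in 3w KO. The KO effect was 1.89 ± 0.22 at 1w (adjusted p = 1.6e-10). At 3w the lower control library was only just above the higher KO library, and the change of -0.57 ± 0.22 (adjusted p = 0.026) was lost without replicate 1 of 3w control (-0.24, adjusted p = 0.54) or without replicate 2 of 3w KO (-0.42, adjusted p = 0.22).

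Relative to Upk3b the other 3 of these genes stayed within a 2-fold range over the 8 libraries. Per kb of exon, Msln stood at 0.775 to 1.36 times the level of Upk3b per library, Lrrn4 at 0.194 to 0.375 times and Upk1b at 0.192 to 0.355 times. The distance between 2 genes' profiles, as the root mean square difference of their centred log2 CPM over the 8 libraries, was smallest among the members for Msln and Lrrn4 (0.20), followed by Upk3b and Msln (0.264) and by Upk3b and Upk1b (0.284). These distances are descriptions, over libraries that fall into 4 groups.

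The keratins did not move as 1 group. Krt19 (ENSMUSG00000020911, chromosome 11, 100140810 to 100148665), a small keratin of simple epithelia, followed the surface genes. Its level was 1.01 and 0.929 CPM in 1w control, 3.05 and 3.23 in 1w KO, 1.62 and 1.94 in 3w control, and 0.706 and 0.802 in 3w KO. The KO effect was 1.70 ± 0.21 at 1w (adjusted p = 4.9e-10), and at 3w it was -1.22 ± 0.25 (adjusted p = 5e-05), with no overlap at either age.

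Krt8 and Krt18 encode partner keratins that assemble into one filament in simple epithelia, and their genes are neighbours on chromosome 15, with 23697 bases between the end of Krt8 and the start of Krt18. Krt8 (ENSMUSG00000049382, 101996698 to 102004482) had 1.05 and 1.07 CPM in 1w control, 1.93 and 2.06 in 1w KO, 0.477 and 0.353 in 3w control, and 1.73 and 1.67 in 3w KO. It was higher in KO at both ages, by 0.91 ± 0.22 at 1w (adjusted p = 0.00064), and by 1.99 ± 0.29 at 3w (3.97-fold, adjusted p = 2.8e-08), the latter over 20 and 10 counts in control.

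Krt18 (ENSMUSG00000023043, 102028180 to 102032027) stood at 15.1 and 16.1 CPM in 1w control, 17.0 and 17.8 in 1w KO, 1.17 and 0.848 in 3w control, and 5.82 and 5.26 in 3w KO. At 1w its difference of 0.15 ± 0.076 did not pass the test (adjusted p = 0.11), while at 3w KO was 5.33-fold higher (2.41 ± 0.17, adjusted p = 1.5e-19). Krt18 was also the gene with the widest fall with age in control, to 1 part in 15.1 of its level at 1w. In KO the same fall was to 1 part in 3.13.

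Although the proteins pair, the 2 transcripts were far from equal. Per kb of exon Krt18 exceeded Krt8 19.7- and 20.5-fold in 1w control, 12- and 11.8-fold in 1w KO, 3.34- and 3.27-fold in 3w control, and 4.59- and 4.29-fold in 3w KO. Krt19 and Krt8 were nearly level per kb in 1w control, at a ratio of 1.01 and 0.92, and Krt19 stood 3.59- and 5.81-fold above Krt8 in 3w control but at 0.431 and 0.506 of it in 3w KO. A processed pseudogene, Krt8-ps, matches Krt8 at 98.6% identity over 941 bases, and Gm5200 matches Krt18 at 90.2% over 1269 bases. Both copies were listed at 0 counts, and how reads that match a gene and its copy were counted is not given in the sources used here.

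Wt1 changed with age and was not called in KO at either age. Wt1 (ENSMUSG00000016458, chromosome 2, 105126529 to 105173616), the zinc finger factor of the embryonic epicardium, stood at 17.2 and 18.3 CPM in 1w control, 16.4 in both libraries of 1w KO, 2.34 and 2.12 in 3w control, and 2.19 and 2.54 in 3w KO. The difference between KO and control was -0.12 ± 0.074 at 1w (adjusted p = 0.20), and at 3w it was 0.08 ± 0.17 (adjusted p = 0.74), neither past the test, and the libraries overlapped at 3w. Between 1w and 3w Wt1 fell by 2.99 ± 0.11 on the log2 scale in control (adjusted p = 5e-34) and by 2.79 ± 0.11 in KO (adjusted p = 9.8e-32).

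Tbx18 (ENSMUSG00000032419, chromosome 9, 87702800 to 87731260), a T-box factor of the epicardium and of the venous pole of the heart, had 2.31 and 2.87 CPM in 1w control, 3.26 and 2.83 in 1w KO, 1.38 and 2.12 in 3w control, and 1.02 and 1.18 in 3w KO. KO and control overlapped at 1w (0.21 ± 0.17, adjusted p = 0.34). At 3w it was lower in KO, by -0.61 ± 0.24 (adjusted p = 0.031), a call that was lost without replicate 2 of 3w control (-0.35, adjusted p = 0.33), without replicate 1 of 3w KO (-0.53, adjusted p = 0.17) or without replicate 2 of it (-0.74, adjusted p = 0.055). Tbx18 shares 970 exon bases, 20.6% of its exons, with D030062O11Rik on the other strand, which had 5 counts over the 8 libraries.

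Aldh1a2 (ENSMUSG00000013584, chromosome 9, 71215789 to 71296243) encodes the dehydrogenase that makes retinoic acid from retinaldehyde in the epicardium. It stood at 9.36 and 8.41 CPM in 1w control, 17.5 and 17.1 in 1w KO, 1.41 and 1.24 in 3w control, and 1.02 and 1.22 in 3w KO. 1w KO was the high group, 1.96-fold above control (0.97 ± 0.085, adjusted p = 3.8e-15), while at 3w the difference of -0.25 ± 0.23 did not pass the test (adjusted p = 0.38). Its fall with age in KO, to 1 part in 15.4 (-3.94 ± 0.13, adjusted p = 8.3e-36), was the largest age difference among the 10 genes in KO.

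**Figure D2:**
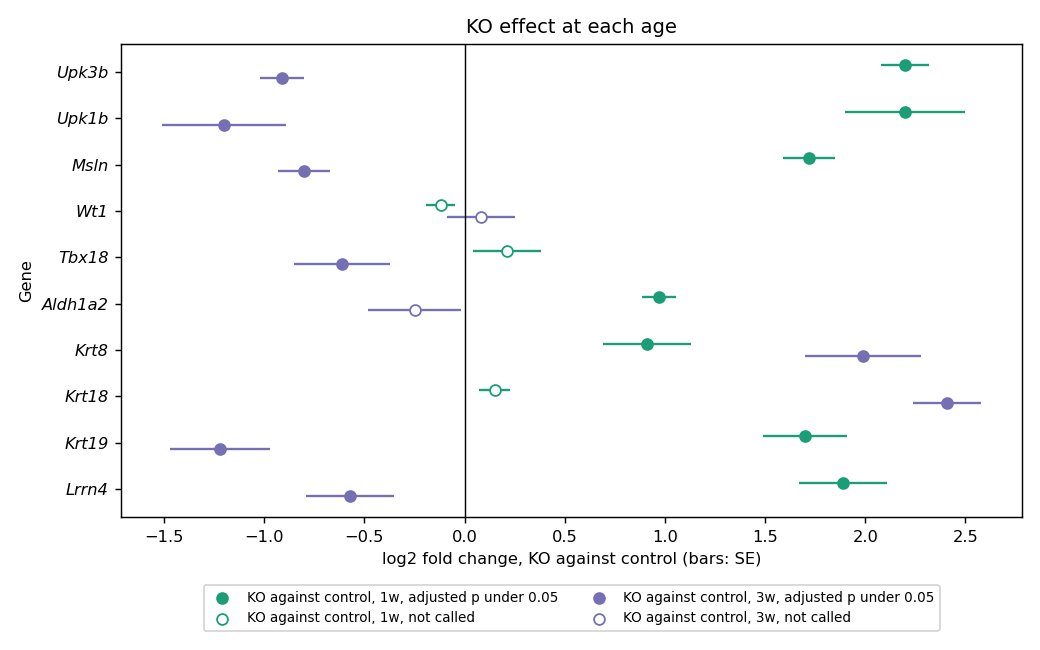
KO effect (x axis, log2 fold change of KO against control) for each of the 10 genes (y axis), at 1w in green and at 3w in violet. Bars are the SE, filled points passed the adjusted p of 0.05 and open points did not. Upk3b, Upk1b, Msln, Krt19 and Lrrn4 have filled points on opposite sides of 0, Krt8 has both on the right, and Wt1 has open points beside 0.

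With age, the 10 genes split in control and moved together in KO. In control 5 rose between 1w and 3w and 5 fell, where 34.9% of all genes were called higher at 3w and 36% lower, and the median of the 10 was 0.12 against -0.03 over all genes. The risers were Upk3b (2.04 ± 0.13, adjusted p = 4.6e-22), Upk1b (1.71 ± 0.33, adjusted p = 5.2e-06), Msln (1.43 ± 0.14, adjusted p = 9.2e-14), Lrrn4 (1.37 ± 0.24, adjusted p = 1.2e-06) and Krt19 (0.87 ± 0.24, adjusted p = 0.00098). Beside Wt1, those that fell were Krt18 (-3.91 ± 0.13, adjusted p = 1.1e-35), Aldh1a2 (-2.72 ± 0.14, adjusted p = 3.6e-26), Krt8 (-1.31 ± 0.32, adjusted p = 0.00022) and Tbx18 (-0.64 ± 0.20, adjusted p = 0.0038). The Tbx18 call was lost without replicate 2 of 1w control (-0.44, adjusted p = 0.15) or replicate 1 of 3w control (-0.31, adjusted p = 0.26).

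In KO 9 of the 10 fell between 1w and 3w and 0 rose, with a median of -1.56 against -0.02 over all genes, where 34.6% of all genes were called lower and 33.2% higher. Krt8 was the exception, at -0.23 ± 0.21 (adjusted p = 0.33). Upk3b fell by 1.07 ± 0.11 (adjusted p = 7.8e-14), Msln by 1.09 ± 0.12 (adjusted p = 1e-11), Lrrn4 by 1.09 ± 0.20 (adjusted p = 2.9e-06), Upk1b by 1.69 ± 0.28 (adjusted p = 3.5e-07) and Krt19 by 2.05 ± 0.22 (adjusted p = 2.6e-12) on the log2 scale. The age comparisons use the same 8 libraries as the KO comparisons, so they are not separate evidence on these 5 genes. The same Y-linked difference divides 1w from 3w within control and, in the other direction, within KO.

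The levels of the 10 genes per kb of exon changed order between the groups. In 1w control Krt18 led at 10.9 CPM per kb, ahead of Aldh1a2 at 3.92 and Wt1 at 2.86, and the surface genes lay between 0.171 (Upk1b) and 0.758 (Msln). There Upk3b, Tbx18, Krt8 and Krt19, at 0.522 to 0.605 CPM per kb, did not separate from their neighbours beyond the spread of the libraries, nor did Lrrn4 and Upk1b. In 3w control Upk3b led at 2.50 CPM per kb, followed by Msln at 2.02 and Krt19 at 0.96. Next came Krt18 (0.701), Upk1b (0.595), Aldh1a2 (0.584) and Lrrn4 (0.573), whose libraries overlapped from each to the next, then Tbx18 (0.371) and Wt1 (0.36), which overlapped, and Krt8 (0.212).

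In 1w KO the order by level per kb was Krt18 (12.1), Aldh1a2 (7.64), Upk3b (2.81), Wt1 (2.65), Msln (2.47), Krt19 (1.69), Krt8 (1.02), Lrrn4 (0.839), Upk1b (0.836) and Tbx18 (0.645), and there only Lrrn4 and Upk1b overlapped as neighbours. In 3w KO Krt18 led at 3.86 CPM per kb and Upk3b (1.34) and Msln (1.16) followed with overlapping libraries, then Krt8 (0.869) and Aldh1a2 (0.495). Krt19 (0.406), Lrrn4 (0.397) and Wt1 (0.382) overlapped from each to the next there, as did Upk1b (0.26) and Tbx18 (0.234) at the end. Wt1 stood 4.78 and 4.70 times above Upk3b per kb in 1w control, but at 0.145 and 0.142 of it in 3w control. In KO the same ratio of levels was 0.928 and 0.957 at 1w and 0.258 and 0.315 at 3w.

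**Figure D3:**
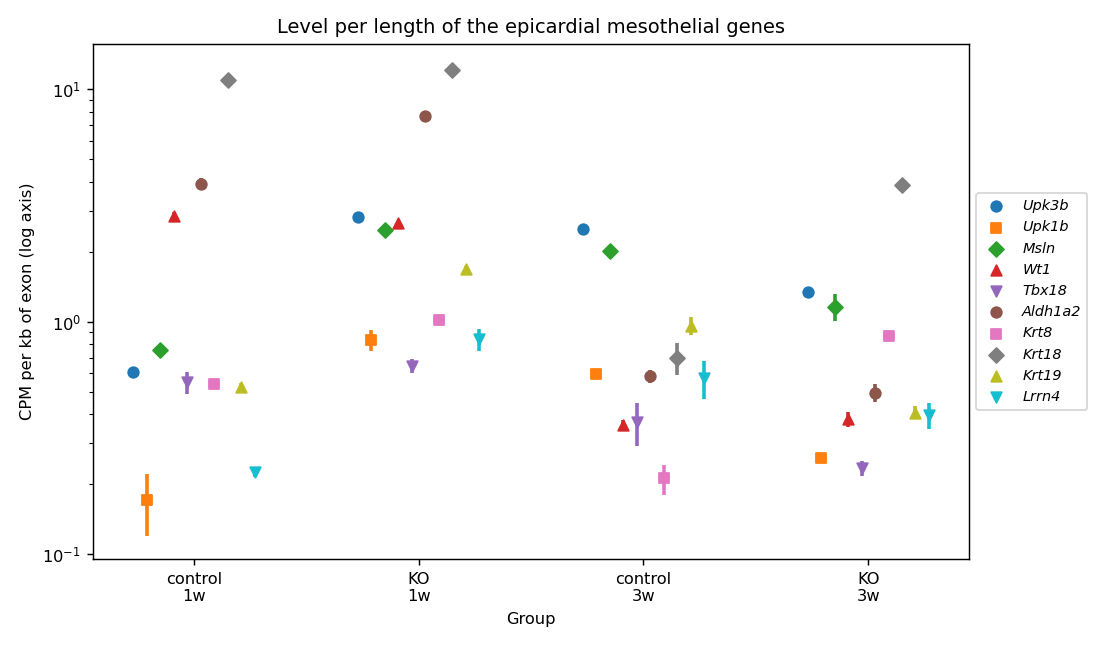
Level of the 10 genes in CPM per kb of exon (y axis, log scale) in the 4 groups (x axis). Points are means of 2 libraries and vertical lines, where longer than the point, span them. Krt18 leads in 1w control (10.9) and in both KO groups, and Upk3b leads in 3w control (2.50). In control Wt1 drops from 2.86 to 0.36 between 1w and 3w.

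The KO effect at 3w was set against that at 1w by an interaction contrast. It was called for 9 of the 10 genes, 7 lower and 2 higher, with a median of -1.84 against 0 over all genes. Of all genes tested 35.6% were called in either direction, 17.9% lower and 17.6% higher. The 7 were Upk3b, Upk1b, Msln, Krt19, Lrrn4, Aldh1a2 and Tbx18, and the 2 were Krt18 and Krt8. For Wt1 the contrast was 0.19 ± 0.19 (adjusted p = 0.45). Y-linked transcripts fall along exactly this contrast, so age dependence of the KO effect cannot be told apart from the difference in Y-linked transcripts.

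In the KO effect averaged over both ages, 6 of the 10 genes were higher and 0 lower, with a median of 0.48 against 0.02, where 27.5% of all genes were called higher and 25.3% lower. Krt8 (1.45 ± 0.18, adjusted p = 5.7e-10) and Krt18 (1.28 ± 0.093, adjusted p = 9.2e-19) had the largest values. They were followed by Lrrn4 (0.66 ± 0.16, adjusted p = 0.00047), Upk3b (0.65 ± 0.088, adjusted p = 5.4e-09), Msln (0.46 ± 0.098, adjusted p = 6.3e-05) and Aldh1a2 (0.36 ± 0.13, adjusted p = 0.012). Upk1b (0.50 ± 0.23, adjusted p = 0.063), Krt19 (0.24 ± 0.18, adjusted p = 0.25), Wt1 (-0.02, adjusted p = 0.86) and Tbx18 (-0.20 ± 0.15, adjusted p = 0.27) did not pass. The call on Aldh1a2 was lost without replicate 2 of 3w control (adjusted p = 0.061) or of 3w KO (adjusted p = 0.16). Upk1b passed without replicate 2 of 1w control (0.79, adjusted p = 0.033) or of 1w KO (0.57, adjusted p = 0.049), and Tbx18 was called lower without replicate 1 of 3w control (-0.37, adjusted p = 0.048). For Upk3b, Msln and Lrrn4 the average joins a rise at 1w and a smaller fall at 3w and is the value of neither age.

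A list of 12 other genes of mesothelium and epicardium, of which 10 could be tested, held 7 that moved like the surface genes at both ages. At 1w all 10 were higher in KO, with a median of 1.58, where 23% of all genes were called higher. At 3w 7 were lower and 0 higher, with a median of -1.0, where 24.8% of all genes were called lower and 24.4% higher. Both calls, higher at 1w and lower at 3w, were met by 3.15% of all genes. Muc16, the mucin that binds mesothelin, stood at 0.545 and 0.656 CPM in 1w control, 2.29 and 2.65 in 1w KO, 3.86 and 3.99 in 3w control, and 1.98 and 1.78 in 3w KO. Its KO effect was 2.00 ± 0.24 at 1w (adjusted p = 1.4e-10), and at 3w it was -1.06 ± 0.18 (adjusted p = 6.9e-07). Krt7, another simple keratin, changed by 2.01 ± 0.28 (adjusted p = 1.3e-08) and -1.25 ± 0.40 (adjusted p = 0.0068), the latter on 10 and 7 counts in KO.

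Rspo1, a secreted enhancer of Wnt signalling, was higher in 1w KO by 1.95 ± 0.40 (adjusted p = 6e-05), on 7 counts in each control library. Bnc1, a zinc finger factor of mesothelium, was lower in 3w KO by -1.99 ± 0.55 (adjusted p = 0.0019), on 3 and 4 counts in KO against 20 and 15 in control. Gpm6a, a membrane glycoprotein, was lower at 3w by -1.08 ± 0.18 (adjusted p = 8.1e-07). Krt14 was called in both comparisons on few counts, 2 and 1 in 1w control, 19 and 36 in 1w KO, 8 and 9 in 3w control, and 0 and 2 in 3w KO. Of the 10 tested, 7 (Bnc1, Cldn15, Gpm6a, Krt14, Krt7, Muc16 and Rspo1) were called higher in 1w KO and lower in 3w KO, and in the average over both ages 3 were higher and 0 lower, a share near the 27.5% of all genes. Pdpn, a surface glycoprotein, and Sema3d, a secreted guidance factor, were higher in 1w KO but at 3w had values of 0.08 and 0.15, not called, and Sema3d fell with age in control by 1.02 ± 0.16 (adjusted p = 6.2e-08) on the log2 scale.

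Factors of the epithelial-mesenchymal transition behaved otherwise. Of 10 listed genes of that transition and of the epicardial lineage, 8 were tested. In KO 4 were higher and 1 lower at 1w, and 5 higher and 0 lower at 3w. Among all genes tested, 23% were called higher and 20% lower at 1w, and 24.4% and 24.8% at 3w. Snai2, a repressor of epithelial genes, was higher in KO by 0.81 ± 0.18 at 1w (adjusted p = 0.00011) and, at 3w, by 1.20 ± 0.29 (adjusted p = 0.00036), and Sox9 by 0.90 ± 0.18 (adjusted p = 3.6e-05) and 1.71 ± 0.44 (adjusted p = 8e-04). Snai1 was higher by 0.81 ± 0.31 (adjusted p = 0.029) and 1.25 ± 0.39 (adjusted p = 0.0052). The 3w values rest on few counts, for Sox9 9 and 4 in control and 14 and 21 in KO. For Snai1 they were 10 and 14 in control and 18 and 29 in KO. Hand2, a factor of heart and epicardium development, was lower at 1w by -1.29 ± 0.21 (adjusted p = 9.2e-07), and Zeb1 was higher at 3w by 0.33 ± 0.052 (adjusted p = 3.6e-07). With age in control 7 of the 8 fell and 0 rose, beside 36% of all genes called lower and 34.9% higher. The fall was led by Sox9 (-3.33 ± 0.33, adjusted p = 1.1e-13).

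The other genes of the retinoic acid pathway did not follow Aldh1a2. Of 18 listed, 12 were tested, with 4 higher and 3 lower in 1w KO and 3 higher and 6 lower at 3w, beside 23% and 20% of all genes at 1w and 24.4% and 24.8% at 3w. At 1w Aldh1a1, another retinaldehyde dehydrogenase, was higher by 0.70 ± 0.18 (adjusted p = 0.0015) and the retinol dehydrogenase Rdh10 by 0.43 ± 0.16 (adjusted p = 0.021). Cyp26b1, which breaks retinoic acid down, was lower in KO at both ages, by -1.07 ± 0.27 (adjusted p = 0.00088) and -0.92 ± 0.25 (adjusted p = 0.0015). At 3w Dhrs3, which turns retinaldehyde back to retinol, was lower by -0.61 ± 0.04 (adjusted p = 8.8e-21), and the receptor Rarg was higher by 0.74 ± 0.10 (adjusted p = 1.5e-08). Aldh1a3 was higher at 3w by 1.06 ± 0.46 (adjusted p = 0.047), on 12 and 5 counts in control and 20 and 9 in KO.

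Among the other uroplakins, Upk1a alone was tested of 4, and it was not called in 1w KO (0.36 ± 0.34) or at 3w (-0.68 ± 0.38). Upk2 had at most 2 counts in a library. Of 17 further keratins and epithelial junction genes, a list that shares Krt7 and Krt14 with the mesothelial one, 5 were tested. In KO 4 were higher and 1 lower at 1w, beside 23% and 20% of all genes. At 3w 1 was higher and 2 lower, beside 24.4% and 24.8%. Grhl2, a factor of epithelial genes, was higher in 1w KO by 1.11 ± 0.21 (adjusted p = 1.8e-05). Tjp3, a tight junction protein, was higher in KO at both ages, by 1.72 ± 0.7 (adjusted p = 0.041) and 2.62 ± 0.73 (adjusted p = 0.002), on 0 to 12 counts per library. Ocln, the tight junction protein occludin, was lower in 1w KO by -0.90 ± 0.34 (adjusted p = 0.029). Cdh1, the epithelial cadherin, had 0 to 7 counts per library and Epcam 0 to 2, and neither was tested.

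Markers of other cells that the preparations could hold are set beside these genes. The lung epithelium list of 10 summed to 0.956 to 1.22 CPM in 1w control, 1.19 to 1.24 in 1w KO, 0.177 to 0.238 in 3w control and 0.802 to 1.16 in 3w KO, with 2 of its genes tested. Ager, a receptor abundant in alveolar cells, stood at 0.965 and 0.738 CPM in 1w control and was higher in KO at 3w by 2.21 ± 0.58 (adjusted p = 0.00098), and Sftpb, a surfactant protein, was higher there by 2.87 ± 0.66 (adjusted p = 0.00023), on 2 counts in each control library. Neither was called at 1w. Sftpc, the surfactant protein of alveolar type II cells, had 0 or 1 count in each library. The adipocyte list of 7 summed to 0 to 7 counts, and none of it was tested. The part of lung tissue in the differences above was not tested.

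Atrial muscle and conduction genes were higher in 1w KO for 10 of 14, with 1 lower, beside 23% and 20% of all genes. At 3w 4 of these genes were higher and 7 lower, beside 24.4% and 24.8% of all genes. The atrial list summed to 156 to 159 CPM in 1w control, 725 to 732 in 1w KO, 336 to 337 in 3w control and 728 to 744 in 3w KO, the last with 577 and 590 CPM from Nppa. Bmp10, a secreted factor of atrial muscle, had 0.126 and 0.109 CPM in 1w control, 179 and 180 in 1w KO, 19.7 and 20.8 in 3w control, and 0.0353 and 0.105 in 3w KO. Myl7, the atrial myosin light chain, had 7.47 and 8.36, then 92.9 and 96.3, then 13.9 and 13.3, then 1.98 and 1.71 CPM in the same order. As for Upk3b, Upk1b, Msln and Lrrn4, 1w KO was the highest group of Bmp10 and Myl7 and 3w control the next. The part of atrial tissue in the differences of the epicardial mesothelial genes was not tested.

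Fibroblast markers were higher in KO for all 9 tested at each age, with summed levels of 1247 to 1248 CPM in 1w control, 2308 to 2334 in 1w KO, 286 to 287 in 3w control and 627 to 640 in 3w KO. Macrophage markers summed to 48.1 to 49.1, 152 to 159, 93.2 to 94.3 and 135 to 140 CPM in the same groups, with 10 of 10 higher in 1w KO, and 9 higher and 1 lower at 3w. All 9 endothelial markers were higher in 1w KO, and 5 were higher and 2 lower at 3w. Smooth muscle markers were higher in KO for 4 of 8 at 1w, with 3 lower, and for 8 of 8 at 3w. Ventricular cardiomyocyte markers were lower in KO for 7 of 9 tested at 1w, with 1 higher, and for 8 of 9 at 3w. Beside the counts of all these lists, 23% of all genes were called higher and 20% lower at 1w. The shares at 3w were 24.4% higher and 24.8% lower. The fibroblast sum thus stood higher in KO at both ages, unlike the sum of the 10 epicardial mesothelial genes, which was 51.6 to 53.4 CPM in 1w control, 80.9 to 82.4 in 1w KO, 26.2 to 27.5 in 3w control and 22.2 to 23.6 in 3w KO. The part of these cells in the differences above was not tested.

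**Figure D4:**
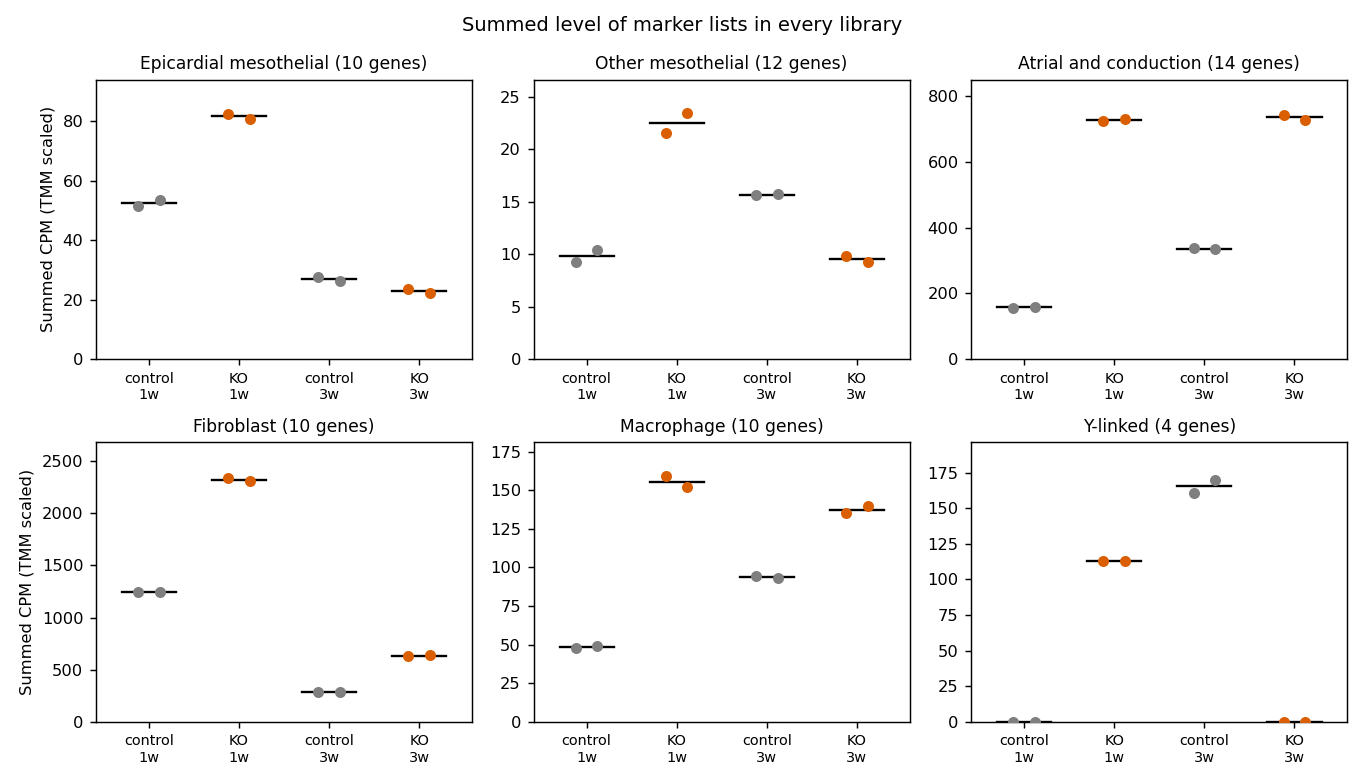
Summed CPM (y axis, TMM scaled, linear from 0) of 6 gene lists in the 4 groups (x axis). Points are libraries, grey for control and orange for KO, and lines are the means of 2. The 2 mesothelial lists are highest in 1w KO. The 4 Y-linked genes are high in 1w KO (113 CPM) and highest in 3w control (161 to 170 CPM). The fibroblast list is higher in KO at both ages. The atrial list is high in both KO groups, in 3w KO with 577 and 590 CPM of its sum from Nppa.

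The genes with profiles nearest to the median profile of the 10 were named by a fixed rule, the smallest root mean square distance of centred log2 CPM over the 8 libraries, among the other genes whose CPM averaged at least 1. Dpp4, a surface peptidase, was the nearest at 0.104, with mean CPM of 2.69 in 1w control, 5.84 in 1w KO, 2.82 in 3w control and 2.19 in 3w KO. Next were Grhl2 (0.166), Adgrb2 (0.17), Sfi1 (0.19), Rarres2 (0.197), AU021092 (0.2), Myo19 (0.224), Pdpn (0.227), Dusp6 (0.23) and Cd44 (0.232). All 10 neighbours were called higher in 1w KO, which the choice by profile brings about. The members themselves lay between 0.332 (Krt19) and 1.54 (Krt18) from that median, further than each of these neighbours, so the median profile stands for no single member.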

How the data were processed

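The data were 1 deposited table of raw counts per gene for 8 libraries of mRNA from isolated mouse cardiomyocytes. Per the submitters' processing notes, the authors used FastQC, MultiQC, HISAT2, featureCounts, DESeq2 and the build mm10; no version, strand setting or annotation is given in the sources used here. GENCODE M21 named 54723 of 54752 IDs and gave exon lengths.

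Genes were kept by filterByExpr (minimum count 10, minimum total 15), library sizes were scaled by TMM (factors 0.759 to 1.23), and all 4 groups entered 1 robust quasi-likelihood fit in edgeR 4.0.16 under R 4.3.3, where residual degrees of freedom were 4 and the common coefficient of variation 3.03%. Benjamini-Hochberg adjustment ran over the 14665 genes tested, and the SE was derived from the F statistic. The distance between profiles used a prior count of 2. The procedure was also run on simulated counts with known changes, drawn with the spread that the fit itself had estimated. Such counts cannot speak to differences between the hearts sampled. Between 40.7 and 47.8% of counts per library were mitochondrial and stayed in the library sizes. Replicate libraries differed by more than sampling noise (chi-square per gene 1.46 to 6.89), and 3 counts stood for 0.0674 to 0.126 CPM. Replicate numbers did not pair libraries: their deviations correlated between groups at -0.022 to 0.008.

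The genes described and the lists beside them were chosen with earlier results of these data known. All 10 genes are named. Of each other list up to 4 called genes with the largest log2 fold change per comparison could be named, or 2 where none was called; Muc16 at 3w, Cldn15, Actc1, Tcf21, Scx, Cdh1, Epcam, Upk2, Sftpc and Ager's levels were added after their values were seen. One gene of the retinoic acid list that the rule names is not reported here. Alternatives were other size factors, no mitochondrial genes, no filter, a mean CPM of at least 1, DESeq2 1.42.0, a replicate block, only the 2 groups compared, and leaving out each library.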

Additional observations from a re-analysis of the deposited data

Results flagged for a closer look

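The KO effect differed between 3w and 1w for 9 of the 10 genes by the interaction contrast, given here as the log2 KO effect at 3w less that at 1w. It was -3.12 ± 0.17 for Upk3b (adjusted p = 3.8e-24), -3.40 ± 0.43 for Upk1b (adjusted p = 1.6e-09), -2.92 ± 0.33 for Krt19 (adjusted p = 4.8e-11), -2.51 ± 0.19 for Msln (adjusted p = 1.2e-17) and -2.46 ± 0.32 for Lrrn4 (adjusted p = 2.3e-09), the 5 genes higher in 1w KO and lower in 3w KO. Aldh1a2 had -1.23 ± 0.24 (adjusted p = 4.1e-05) and Tbx18 -0.83 ± 0.30 (adjusted p = 0.024). In the other direction Krt18 had 2.26 ± 0.19 (adjusted p = 6.6e-16) and Krt8 1.08 ± 0.38 (adjusted p = 0.021). The Tbx18 call was lost without replicate 1 of 1w control (adjusted p = 0.078), replicate 2 of 3w control (0.21), replicate 1 of 1w KO (0.097) or replicate 1 of 3w KO (0.12). The Krt8 call was lost without replicate 2 of 1w control (adjusted p = 0.073), replicate 2 of 3w control (0.09) or replicate 1 of 1w KO (0.055). Y-linked transcripts split the groups the same way and cannot be told apart from age in this contrast.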

How the results depend on the processing

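The 10 genes' differences in 6 comparisons were recomputed 874 times, and 843 kept their direction and their side of the threshold, 23 lost the call, 3 gained one and 5 turned sign. All 5 that turned were of Wt1, which was called in none of the comparisons concerned: at 3w it was -0.01 without replicate 2 of 3w control and -0.06 without replicate 2 of 3w KO (-0.06 to 0.16 over all left-out libraries), and in the average over both ages it was 0.00 without replicate 2 of 1w control and 0.01 without replicate 1 of 3w control or replicate 1 of 3w KO (-0.10 to 0.01). DESeq2's Wald test called 3765 genes rather than 6305 in 1w KO, and 3150 rather than 5215 for the interaction. Under it 1 gene of the 10 was called higher in the interaction rather than 2, and calls were lost for Krt8 in 1w KO (adjusted p = 0.053), for Tbx18 (0.13) and Lrrn4 (0.2) in 3w KO, for Tbx18 with age in control (0.11), for Tbx18 (0.16) and Krt8 (0.17) in the interaction, and for Aldh1a2 (0.071) in the average over both ages. Leaving out a library gave 1 to 2 genes called higher in the interaction and 0 to 1 called lower in the average. The count of genes higher in 1w KO and lower in 3w KO, an alternative chosen after seeing the data, was 4 with a mean CPM of at least 1, where Upk1b was not tested, and 4 under DESeq2, without replicate 1 of 3w control or without replicate 2 of 3w KO, each time without Lrrn4; it was 5 in the other settings. Without mitochondrial genes the members' summed CPM was 93.7 in 1w control, 145 in 1w KO, 48 in 3w control and 40.8 in 3w KO, against 52.5, 81.6, 26.9 and 22.9. The replicate block, whose numbers did not pair the libraries, called 6172 genes in 1w KO and 7107 at 3w against 6305 and 7213, and changed no call of the 10 genes. Counting error limits the genes with under 30 counts in a library: Upk1b, Krt8, Krt18, Krt19, Lrrn4, Tbx18 and Aldh1a2.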

Other observations

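Genes nearest in profile to Upk3b alone were listed after the values had been seen, by the same distance over the 8 libraries. They were Cyp2s1 (0.205), a cytochrome P450, Sbk3 (0.208), a kinase gene, Fmod (0.235), the collagen-binding proteoglycan fibromodulin, Myrf (0.267), a membrane-bound transcription factor, and Cd59a (0.269), an inhibitor of complement. Mean levels of Fmod were 2.43 CPM in 1w control, 9.10 in 1w KO, 6.59 in 3w control and 3.75 in 3w KO. Those of Cd59a were 9.89, 28, 36.9 and 16.9 CPM in the same order. Erythroid markers, of which 5 of 7 were tested, were lower in 1w KO for 4 and higher in 3w KO for 2, beside 20% and 24.4% of all genes. That order is opposite to the one of Upk3b, Upk1b, Msln, Krt19 and Lrrn4, whereas Krt8 and Krt18 were also higher in 3w KO. The erythroid list summed to 55.5 to 77.7 CPM in 1w control, 26.1 to 27.6 in 1w KO, 122 to 134 in 3w control and 157 to 162 in 3w KO.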
